A study of Arabidopsis thaliana with 22 samples.

Results

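Epidermal and cortical cells of the wild-type Arabidopsis thaliana root were compared under the control treatment, as 3 arrays of sorted epidermal cells against 3 arrays of sorted cortical cells, out of 22 arrays in the series. These 6 arrays were chosen by their labels alone, and all 31524 transcript models on the array were described. The epidermis is the outermost cell layer of the root. It meets the soil solution and consists of files of cells that form root hairs alternating with files that do not. The cortex lies directly beneath it and belongs to the ground tissue, which also gives rise to the endodermis, the layer that seals the inner tissues with a lignified barrier, the Casparian strip. A regulatory module of MYB and bHLH transcription factors that includes WER sets the fate of the epidermal files.

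All 6 arrays came from the accession Col0, with cells marked by a GFP reporter of epidermis or of cortex. No label names the promoter that drives either reporter. The protocols state that plants were raised for 9 days at 22 °C in 16 h of light and 8 h of dark, on medium whose nitrogen was 0.1 mM KNO3 and which held 30 mM sucrose, and the treatment lasted 2 h. Sample names give the control as 5 mM KCl and the age as 12 days, whereas the protocol describes a move to fresh plates of 0.1 mM KNO3 on day 9. The sources do not settle either point, and the control is called KCl here. Whole roots were digested to protoplasts, cells were sorted by fluorescence, and the RNA was amplified and labelled with Cy3. The other groups were Col0 under 5 mM KNO3 (3 epidermal and 2 cortical arrays), and the mutant atscl26 under KCl (2 and 3) and under KNO3 (3 and 3), with the same cell types and protocol. The mutant is named for SCL26, a GRAS-family gene. The labels call the arrays of a group biological replicates, and no slide or scan batch is given for them.

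Levels are log2 values, so a difference of 1 is a doubling of signal. Below, 3 levels given in a row are those of replicates 1, 2 and 3, the epidermal arrays first, and a difference is epidermis minus cortex with its standard error from limma. That error draws on the spread within all 8 groups of the 22 arrays, so it does not measure the spread of the 6 levels beside it. Levels are compared between arrays for a given gene and not between genes. With sorted bulk material, fewer cells of a type and less RNA per cell cannot be told apart.

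The 3 epidermal arrays were less alike than the 3 cortical arrays. Over all models the cortical arrays correlated with each other at 0.928 to 0.943. Epidermal replicate 2 correlated with the other 5 arrays at only 0.540 to 0.592, and its range of levels was compressed. Models were ranked by mean level over all arrays and cut into 4 equal bins. The dimmest bin averaged 7.47 in it against 6.24 and 6.38 in epidermal replicates 1 and 3, and the brightest bin averaged 10.78 against 12.41 and 12.25. Epidermal replicate 1 correlated more closely with the 3 cortical arrays (0.923 to 0.940) than with epidermal replicate 3 (0.869). In the authors' deposited table of group averages, the average for Col0 epidermis KCl equals the mean of replicates 1 and 3 and an array labelled atscl26 epidermis KNO3 replicate 1, and replicate 2 is not in it. The average for Col0 cortex KCl equals the mean of its 3 labelled arrays. Groups were kept as labelled, and values without replicate 1 or 2 are given where they differ.

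Marker genes set the labelled cell types apart only in part. The mean level of 16 epidermal patterning genes was 9.02, 9.59 and 9.52 in the epidermal arrays and 8.36, 7.96 and 8.19 in the cortical arrays, so the groups did not overlap. The mean of 5 cortex markers was 10.56, 10.81 and 8.28 against 10.62, 9.62 and 10.11. It was low only in epidermal replicate 3. C/VIF2, an invertase inhibitor used as a cortex marker, was at 11.39, 12.43 and 8.31 against 11.29, 10.89 and 11.28. Its difference was -0.44 ± 1.01, and 0.76 without epidermal replicate 3.

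The mean of 9 ground tissue patterning genes was 10.07, 9.77 and 7.86 in the epidermal arrays against 10.06, 10.18 and 9.94 in the cortical arrays, far lower in epidermal replicate 3 and slightly below the cortical arrays in replicate 2. The mean of 13 endodermis markers was 11.17, 9.34 and 7.15 against 8.61, 8.09 and 7.99, so it was highest in epidermal replicate 1 and lowest in epidermal replicate 3. The mean of 16 stele markers was 8.33, 9.52 and 7.59 against 7.99, 7.73 and 7.71. For 5 root cap markers it was 7.37, 8.86 and 9.04 against 8.29, 7.51 and 7.82. Epidermal replicate 3 alone had a ground tissue mean more than 1 log2 unit below every cortical array.

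**Figure D1:**
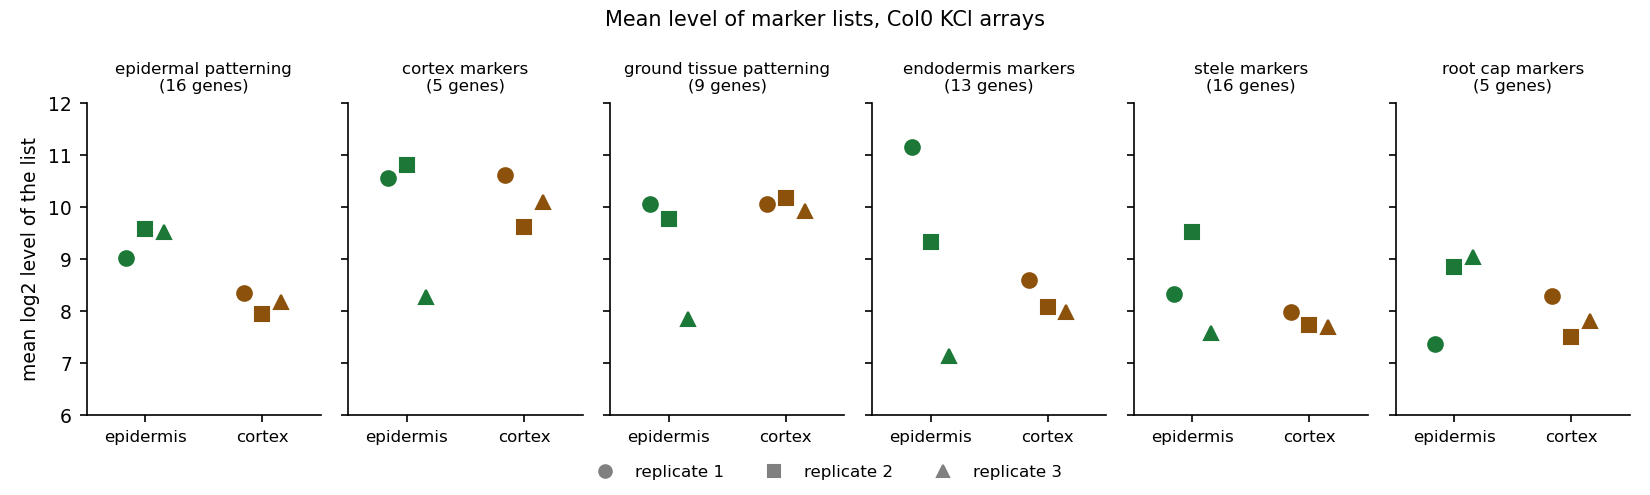
Mean log2 level (vertical axis) of the genes of 6 marker lists in each Col0 KCl array, with epidermal arrays in green and cortical arrays in brown and 1 symbol per replicate number. The epidermal patterning mean was higher in all 3 epidermal arrays (9.02 to 9.59 against 7.96 to 8.36), and the endodermis mean ran from 7.15 to 11.17 among them.

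No model passed the limma test at an adjusted p under 0.05 (0% of 31524), and the smallest adjusted p was 0.221. At an unadjusted p under 0.05, 690 models (2.19%) were higher in the epidermis and 926 (2.94%) lower. The median standard error of a difference was 0.688. Every epidermal array exceeded every cortical array for 895 models (2.84%), and every epidermal array lay below every cortical array for 1572 (4.99%). These shares are the background for the gene lists below. Without epidermal replicate 1 the test called 30 models, and without replicate 2 it called 0. The median difference over all models was 0.01, and it was 0.06 without epidermal replicate 1 and -0.13 without replicate 2. List medians with an array left out are to be read against these. No member of any list below passed the test, and apart from PAL4, whose values follow, every member had an adjusted p of 0.845 or more.

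Regulators of epidermal cell fate had the largest share of members with groups apart among the lists of root cell types. Of 16 members, 14 had a positive and 2 a negative difference, with a median of 0.77 against 0.01 over all models. For 6 of them (37.5%, against 2.84% of all models) the epidermal arrays all exceeded the cortical arrays, and for none did they all lie below. Without epidermal replicate 2 the median was 0.26 and the positive count 11, and 7 members then had every remaining epidermal array above, against 6.64% of all models.

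Among the bHLH partners of the WER module, MYC1 was at 11.36, 9.46 and 12.44 in the epidermis and 7.06, 6.81 and 6.72 in the cortex. The groups were well apart, with a difference of 4.22 ± 1.33 that lay between 3.54 and 5.03 when any 1 epidermal array was left out. EGL3 was at 8.29, 8.36 and 9.50 against 7.31, 6.37 and 6.19 (2.09 ± 1.02). GL3 was at 7.0, 7.25 and 8.63 against 6.33, 5.81 and 5.76 (1.66 ± 0.85). Both are redundant bHLH members of the same complex, and for both the lowest epidermal array stood within 1 log2 unit of the highest cortical array.

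Downstream of the complex, GL2 encodes a homeodomain factor that represses hair formation in non-hair files. It was at 7.53, 9.56 and 8.99 against 6.94, 6.47 and 6.03, a difference of 2.21 ± 0.79 with no overlap. RHD6, a bHLH factor that starts root hair formation in the neighbouring files, was at 11.30, 9.86 and 11.61 against 8.35, 8.26 and 7.82 (2.78 ± 1.17). The groups were apart for RHD6 as well, whereas other regulators of these files, TRY, TTG2, RSL1 and ZFP5 among them, overlapped. ETC1, a small MYB-like inhibitor of the complex, was also apart, at 9.56, 10.44 and 9.83 against 9.25, 9.33 and 9.33 (0.64 ± 0.79).

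WER itself, the MYB factor of non-hair cells, overlapped between the groups. Its level was 11.22, 7.73 and 13.51 in the epidermis and 10.52, 7.24 and 8.66 in the cortex, with a difference of 2.01 ± 1.45. It was highest in epidermal replicate 3 and close to the cortical levels in replicate 2. The difference was 3.55 without replicate 2 and 0.66 without replicate 3. CPC, the mobile inhibitor that moves from non-hair to hair cells, had a difference of 0.11 ± 0.48, and the WD40 protein gene TTG1 one of -0.14 ± 0.45, both with overlapping groups.

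**Figure D2:**
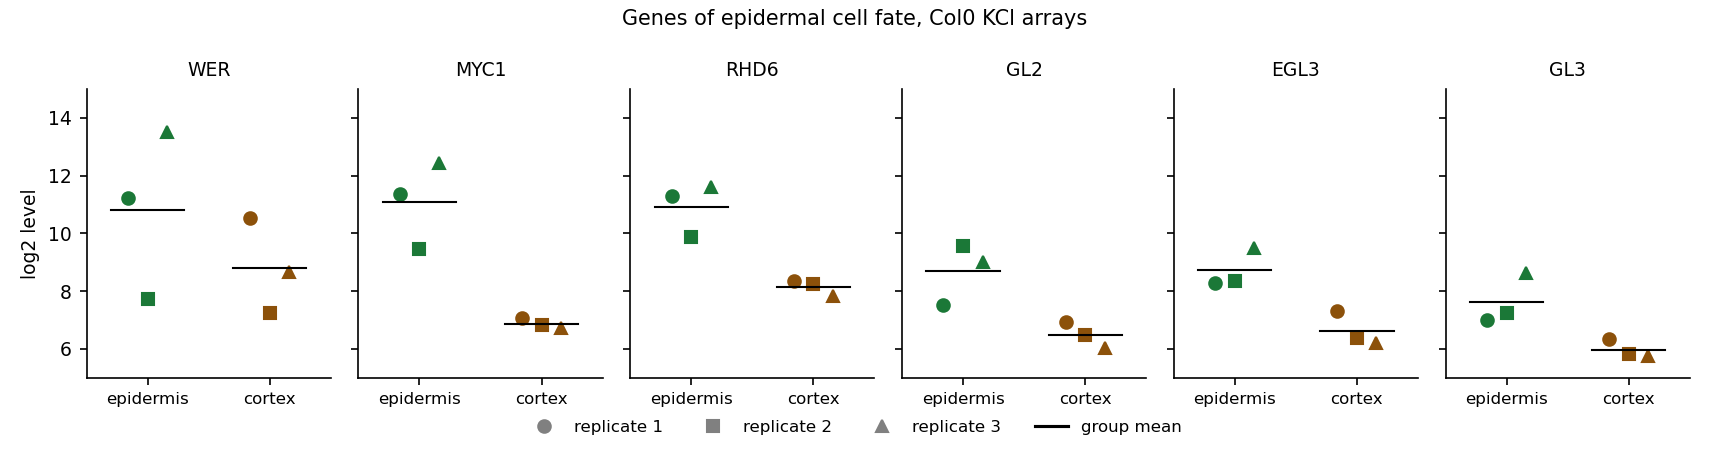
Log2 level (vertical axis) of 6 genes of epidermal cell fate in each epidermal (green) and cortical (brown) Col0 KCl array, with 1 symbol per replicate number and a line at the group mean. MYC1, RHD6, GL2, EGL3 and GL3 were higher in all 3 epidermal arrays than in any cortical array, whereas WER overlapped.

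Genes of root hair growth gave a mixed picture. Of 23 members 15 had a positive and 8 a negative difference, with a median of 0.49. All epidermal arrays lay above for 2 (8.7%, against 2.84% of all models) and below for 1 (4.35%, against 4.99%). Without epidermal replicate 2 the median was -0.08, against -0.13 over all models. HA7, a plasma membrane proton pump, was at 8.99, 10.09 and 10.71 against 7.58, 8.52 and 7.63 (2.02 ± 0.92). The locus AT4G26010 was at 7.90, 7.31 and 7.78 against 6.95, 6.58 and 6.04 (1.14 ± 0.57). These were the members whose epidermal arrays all lay above.

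EXPA7, an expansin of growing root hairs, was at 7.18, 8.50 and 6.16 against 6.39, 6.17 and 6.01 (1.09 ± 0.49). It was no higher in epidermal replicate 3 than in the cortex. AT1G30870 behaved likewise, at 10.67, 11.54 and 7.32 against 7.73, 7.64 and 7.88. PIP5K3, a lipid kinase of the root hair tip, was lower in every epidermal array (10.63, 10.42 and 9.81 against 12.03, 11.42 and 10.68, a difference of -1.09 ± 0.91). ROP2, a small GTPase that marks the site of hair outgrowth, had a difference of -2.38 ± 1.03 that was -0.59 without epidermal replicate 2, where its level was 6.06 against 12.50 and 10.35 in the other epidermal arrays.

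Genes for the surface lipids of epidermal cells and for lipid transfer proteins had the highest share of members apart of all the lists, but this list was drawn up after KCS1, LTP5 and GPAT3 had been seen among the top genes, so its counts are a description. All 15 members had a positive difference, with a median of 1.99. For 9 of the 15 (60%, against 2.84% of all models) every epidermal array exceeded every cortical array. Without epidermal replicate 2 the median was 2.19, with 12 positive and 3 negative, and without replicate 1 it was 2.82.

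KCS1, a condensing enzyme of very-long-chain fatty acid synthesis, was at 10.41, 9.28 and 10.44 against 6.19, 6.77 and 6.35, a difference of 3.61 ± 1.07. Leaving out any 1 epidermal array kept this difference between 3.41 and 3.99. CER3, which takes part in wax alkane synthesis, was at 8.05, 11.10 and 11.51 against 7.08, 7.09 and 6.62 (3.29 ± 1.30). CER5, an ABC transporter that exports wax, was at 6.62, 7.88 and 10.31 against 6.34, 6.11 and 6.38 (1.99 ± 0.88). In epidermal replicate 1 both CER genes were within 1 log2 unit of the highest cortical array.

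GPAT3, a glycerol-3-phosphate acyltransferase, was at 12.30, 12.38 and 13.57 against 10.64, 8.53 and 8.14 (3.65 ± 1.13). Its relative GPAT4, known for cutin synthesis in shoots, was at 6.69, 7.78 and 9.90 against 5.34, 6.17 and 6.50 (2.12 ± 0.79). Among the lipid transfer proteins, LTP5 was at 10.59, 9.20 and 11.91 against 6.49, 6.28 and 6.68, a difference of 4.08 ± 1.38. LTP3 was at 7.96, 7.92 and 12.09 against 6.01, 5.95 and 5.98 (3.34 ± 1.24), and LTP2 differed by 3.47 ± 1.69. For LTP3 and LTP2 epidermal replicate 3 stood far above the other epidermal arrays, and their differences were 1.96 and 2.16 without it.

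Transporters for nutrient uptake were described by 4 lists. For phosphate, sulphate and potassium, 10 of 11 members had a positive difference (median 1.19). Of the 11, 1 (9.09%, against 2.84% of all models) had all epidermal arrays above. That member was KT1, the inward potassium channel of root cells, at 10.62, 10.53 and 10.58 against 8.83, 8.87 and 7.70. Its epidermal levels were nearly equal, and the difference was 2.11 ± 0.93. KC1, the subunit that modulates this channel, was at 10.40, 8.98 and 11.50 against 9.35, 8.76 and 7.59 (1.73 ± 0.95), with overlap. The phosphate transporter PHT1;1 (1.75 ± 1.05) and the sulphate transporter SULTR1;2 (1.22 ± 0.73) overlapped because cortical replicate 2 reached the epidermal level of each. The median of this list stayed between 1.22 and 1.34 without any 1 epidermal array. The mean of the list was 10.67, 10.71 and 10.81 against 9.79, 10.59 and 8.37, so it was lowest in cortical replicate 3. Without that cortical array the difference was 0.833 for PHT1;1, 0.379 for SULTR1;2, 1.24 for KC1 and 1.73 for KT1.

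For nitrogen uptake 12 of 15 members had a positive difference, with a median of 0.55 that was 0.05 without epidermal replicate 2. NRT1.1, the dual-affinity nitrate transporter and sensor, was at 13.10, 12.97 and 13.03 against 12.71, 12.70 and 11.14 (0.86 ± 0.89). NRT1.2, a low-affinity nitrate transporter, was at 11.73, 12.01 and 12.54 against 11.03, 11.72 and 9.76 (1.25 ± 0.65). Both, 2 of 15 members (13.3%, against 2.84% of all models), were above the cortex in every epidermal array. Both were lowest in cortical replicate 3. Without that cortical array their differences were 0.335 and 0.714. Nitrate reductase, which acts after uptake, differed by -0.19 ± 0.53 for NIA1 and -0.07 ± 0.45 for NIA2.

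For iron acquisition 11 of 16 members had a positive difference (median 0.24, and -0.06 without epidermal replicate 2). FRU, the bHLH regulator of the iron deficiency response that is also known as FIT, was at 13.28, 12.93 and 13.54 against 11.99, 10.28 and 11.33, a difference of 2.05 ± 0.83 with no overlap. It was the only member whose groups were apart (6.25% of the list, against 2.84% of all models with every epidermal array above). Its targets IRT1, the iron transporter (0.54 ± 0.48), and FRO2, the ferric reductase (0.64 ± 0.76), were low in all arrays except epidermal replicate 2. IRT2 was at 8.82, 10.21 and 6.75 against 6.62, 7.54 and 6.39 (1.74 ± 0.63), and was not raised in epidermal replicate 3.

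Aquaporins went mostly the other way, with 7 of 20 members positive and 13 negative (median -0.35). Among the positive members only NIP1;1, a glycerol-type channel, had its groups apart (5% of the list, against 2.84% of all models). It was at 12.58, 12.94 and 13.63 against 10.39, 10.04 and 9.09. Its difference was 3.21 ± 1.21, between 2.92 and 3.45 without any 1 epidermal array. TIP2;2, a vacuolar membrane channel, was also positive with overlap (1.88 ± 0.85, and 0.99 without epidermal replicate 1). PIP2A, a plasma membrane water channel, was at 14.53, 9.85 and 9.80 against 13.82, 13.98 and 13.45 (-2.36 ± 1.43). PIP1;4 was at 13.52, 11.29 and 10.80 against 13.66, 13.38 and 13.04 (-1.49 ± 0.57). In epidermal replicate 1, the array with the highest endodermis marker mean, both stood at or above cortical levels. With all arrays kept, 0 of the 20 aquaporins were below every cortical array, against 4.99% of all models. Without epidermal replicate 2 there were 2 (10%, against 16.1% of all models). Without epidermal replicate 1 the aquaporin median was -1.08 and 8 of the 20 members were below (40%, against 16.3% of all models). The part of the endodermis markers in this was not tested.

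Beta-glucosidases of ER bodies, which are defence organelles of root cells, were also higher in the epidermal arrays. In the list of indole glucosinolate and ER body genes 10 of 14 members had a positive difference (median 0.58). BGLU21 was at 14.56, 14.27 and 14.63 against 12.46, 13.14 and 12.86 (1.67 ± 0.65), and BGLU22 at 14.21, 14.33 and 14.47 against 13.10, 13.68 and 13.09 (1.05 ± 0.43). For both the groups were apart and the epidermal arrays close together. These were the 2 members (14.3%, against 2.84% of all models) whose epidermal arrays all lay above. PYK10, the main enzyme of these bodies, differed by 0.87 ± 0.54 with overlap. SOT16, a sulphotransferase of glucosinolate synthesis, was below the cortex in every epidermal array (-0.74 ± 0.50). It was the 1 such member (7.14%, against 4.99% of all models).

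The smallest adjusted p of the comparison belonged to PAL4 and to the locus AT1G78230. PAL4 encodes a phenylalanine ammonia-lyase, the entry enzyme of phenylpropanoid synthesis. It was at 8.94, 9.48 and 8.96 in the epidermis and 6.61, 6.69 and 6.32 in the cortex, a difference of 2.58 ± 0.43 with a limma adjusted p of 0.221. Replicates of each group lay within 1 log2 unit. With any 1 of the 6 arrays left out its difference stayed between 2.41 and 2.68, but the limma adjusted p ranged from 0.0457 without epidermal replicate 1 to 0.979 without cortical replicate 3. It was 0.516 without epidermal replicate 2 and 0.422 without replicate 3, and 0.00536 after quantile normalization. NCED3, the rate-limiting enzyme of abscisic acid synthesis under water deficit, was at 10.20, 9.87 and 9.33 against 7.59, 7.34 and 6.63 (2.61 ± 0.57, adjusted p 0.845). ABA2, a later enzyme of that pathway, was lower in every epidermal array (12.68, 12.22 and 11.72 against 13.35, 13.23 and 13.29, a difference of -1.08 ± 0.44). The list of abscisic acid genes, drawn up after NCED3 had been seen, had 10 of 15 members positive, with a median of 0.44 that was -0.11 without epidermal replicate 2. NCED3 alone was apart above (6.67%, against 2.84% of all models) and ABA2 alone below (6.67%, against 4.99%).

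**Figure D3:**
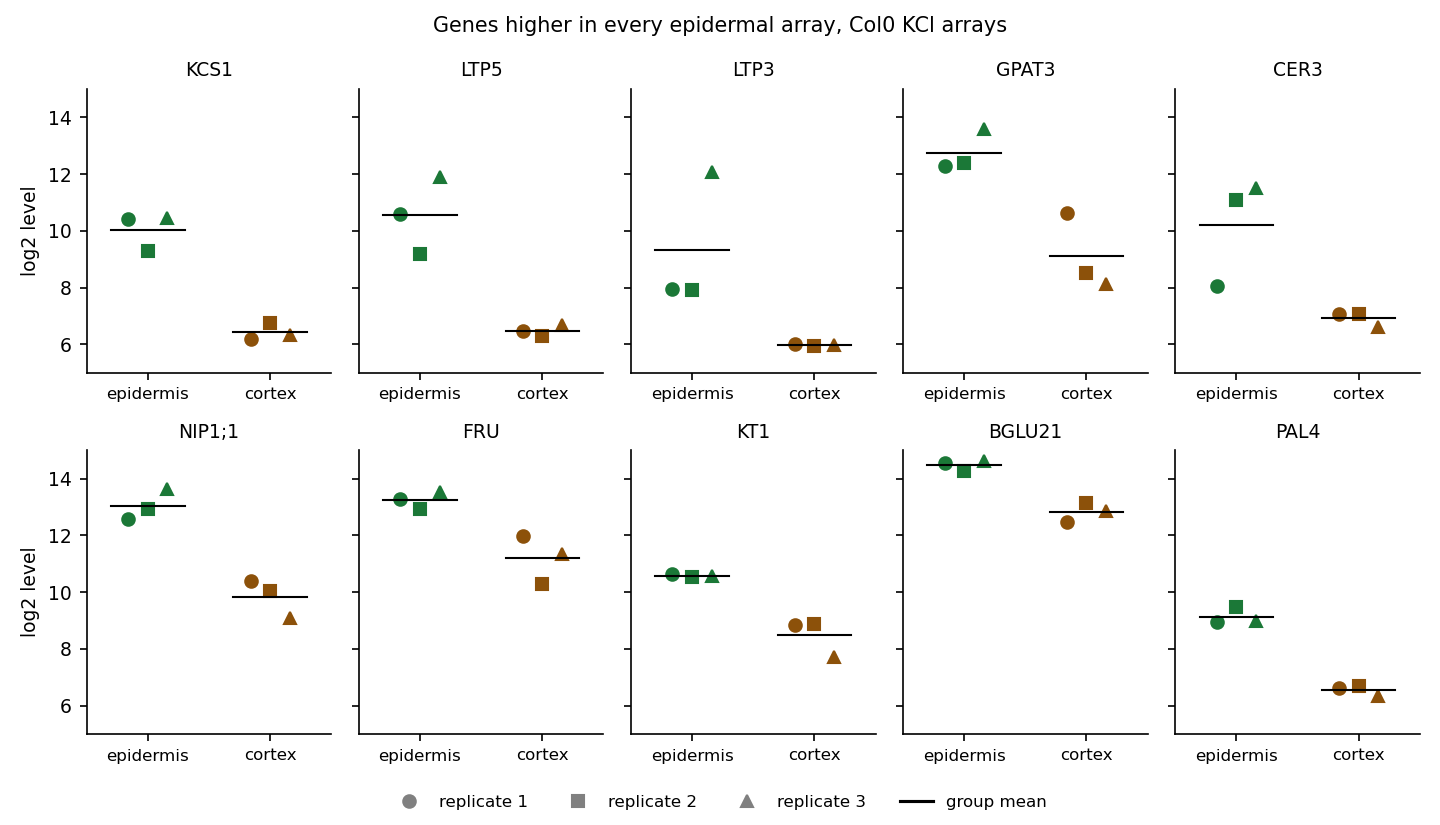
Log2 level (vertical axis) of 10 genes in each epidermal (green) and cortical (brown) Col0 KCl array, with 1 symbol per replicate number and a line at the group mean. For every gene shown the 3 epidermal arrays lay above the 3 cortical arrays, by 2.11 on average for KT1 and 4.08 for LTP5.

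Enzymes of flavonol synthesis were lower in the epidermal arrays, in contrast with PAL4. Of 15 phenylpropanoid and flavonoid genes 4 had a positive and 11 a negative difference (median -0.87). For 6 of the 15 (40%, against 4.99% of all models) every epidermal array lay below every cortical array. The 6 stayed 6 without epidermal replicate 2, and were 10 without replicate 1, against 16.1% and 16.3% of all models.

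TT4, chalcone synthase, which begins the flavonoid branch, was at 11.72, 8.30 and 6.46 in the epidermis and 12.56, 12.96 and 11.80 in the cortex, a difference of -3.62 ± 1.55. TT5, chalcone isomerase, was at 8.70, 8.76 and 6.91 against 10.54, 12.89 and 9.82 (-2.96 ± 1.41). F3H, flavanone 3-hydroxylase, was at 11.08, 9.78 and 7.02 against 12.62, 12.01 and 11.70 (-2.82 ± 1.39). The ordering among the epidermal arrays was alike for TT4 and F3H, with replicate 1 nearest to the cortex and replicate 3 farthest from it.

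FLS1, flavonol synthase, was at 12.75, 9.99 and 8.11 against 14.29, 14.51 and 13.83 (-3.93 ± 1.57). MYB12, the regulator of flavonol genes in the root, was at 10.69, 12.28 and 10.35 against 12.59, 12.38 and 12.45 (-1.37 ± 0.85). For MYB12 epidermal replicate 2 stood just below the lowest cortical array. 4CL3, the coumarate ligase tied to flavonoid synthesis, was also below in every epidermal array (-2.35 ± 1.30). In the general part of the pathway the groups overlapped for C4H, cinnamate hydroxylase (-0.87 ± 0.45), and for CCoAOMT1, a methyltransferase of lignin precursors (-2.92 ± 1.53).

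A further list of 12 flavonoid genes was drawn up after CHIL had been seen among the models with the lowest differences. CHIL, a chalcone isomerase-like protein that assists chalcone synthase, was at 12.63, 9.13 and 9.14 against 13.76, 14.18 and 13.86 (-3.63 ± 1.38). UGT78D2, a glucosyltransferase of flavonols, was at 8.94, 8.14 and 9.54 against 10.64, 11.10 and 9.96 (-1.69 ± 0.97). HY5, a light-signalling factor that acts upstream of flavonoid genes, differed by -1.16 ± 0.97. These 3 of the 12 (25%, against 4.99% of all models) had all epidermal arrays below, while over the list 6 differences were positive and 6 negative. Anthocyanin-branch genes such as DFR (0.22 ± 0.83) and LDOX (0.05 ± 0.43) were highest in epidermal replicate 2, and the list's median was -0.04, or -0.66 without that array.

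Several genes of light signalling were also lower in every epidermal array. In a list of 12 genes of blue and red light signalling, drawn up after NPH3 and PKS1 had been seen, 10 members were negative and 7 (58.3%, against 4.99% of all models) had every epidermal array below. The median was -2.19, but -0.75 without epidermal replicate 2 and -3.06 without replicate 1. PHOT1, the blue-light receptor kinase of phototropism, was at 10.21, 7.45 and 7.34 against 11.30, 11.28 and 11.59 (-3.05 ± 1.31). NPH3, its signalling partner, was at 13.21, 7.47 and 6.71 against 13.76, 13.49 and 14.01. Its difference of -4.62 ± 1.99 was the lowest among the models whose groups were apart.

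RPT2, a relative of NPH3 needed for root phototropism, was at 11.74, 8.69 and 9.22 against 11.96, 11.93 and 12.27 (-2.17 ± 0.94). PKS1, a phytochrome kinase substrate that acts in the same response, was at 11.31, 8.12 and 6.56 against 11.73, 11.80 and 12.37 (-3.30 ± 1.34). For NPH3, RPT2 and PKS1 epidermal replicate 1 stood within 1 log2 unit of the lowest cortical array while the other epidermal arrays were far lower. The photoreceptors PHYA (-2.31 ± 1.06), PHYB (-2.21 ± 1.18) and UVR8 (-1.74 ± 0.85) also had all epidermal arrays below, but their lowest level was in replicate 2. Without it their differences were -0.74, -0.58 and -0.75. The groups overlapped for the other blue-light receptors PHOT2 (0.34 ± 1.04), CRY1 (0.25 ± 0.43) and CRY2 (-1.30 ± 1.13) and for PKS2 (-2.57 ± 1.33). PHOT1, NPH3, RPT2 and PKS1 had differences of -2.61, -3.79, -1.57 and -3.03 without epidermal replicate 2.

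**Figure D4:**
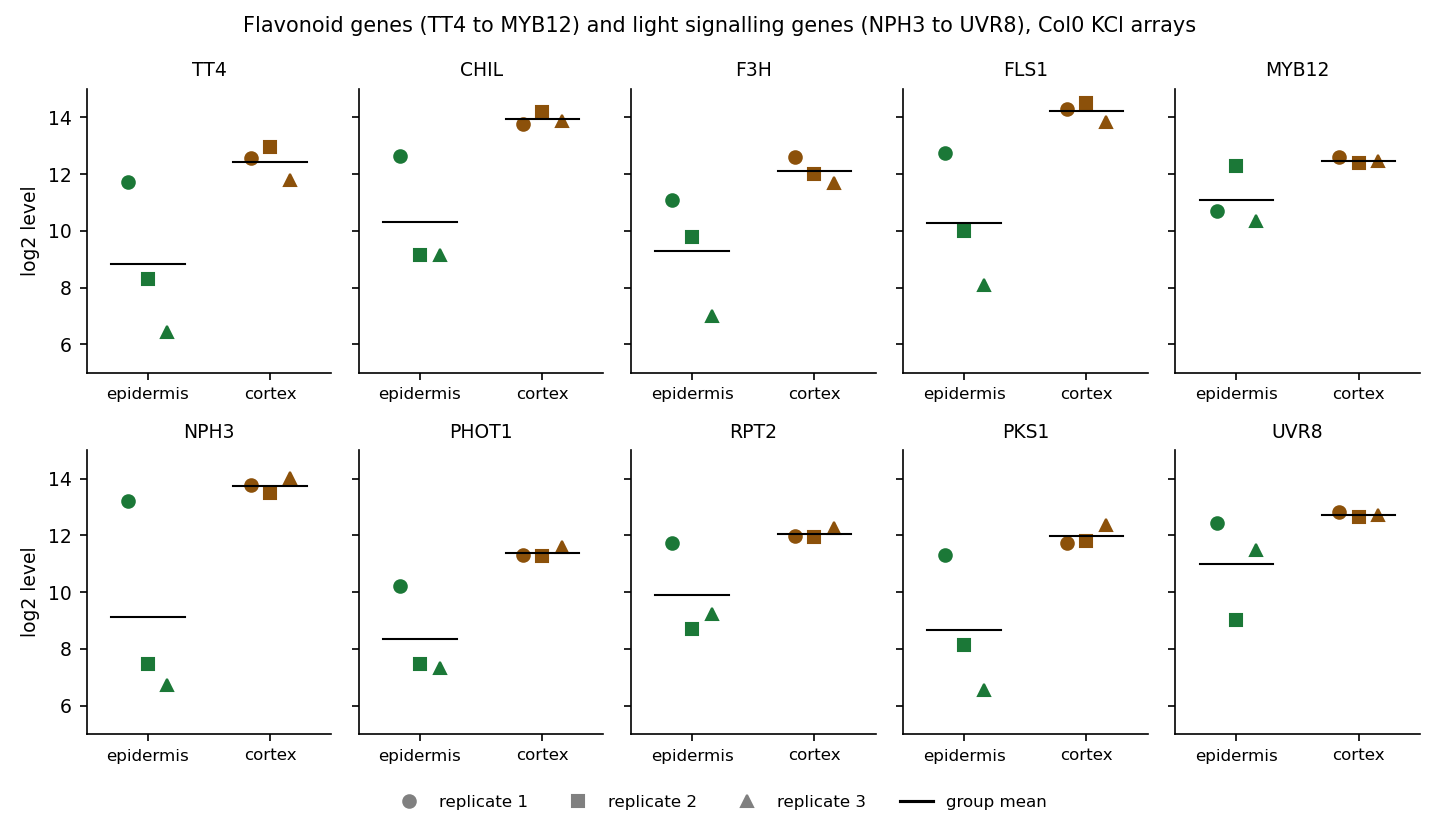
Log2 level (vertical axis) of 5 flavonoid genes (upper row) and 5 light-signalling genes (lower row) in each epidermal (green) and cortical (brown) Col0 KCl array, with 1 symbol per replicate number and a line at the group mean. All 10 genes were lower in every epidermal array, with replicate 1 near the cortical level for NPH3, RPT2 and PKS1 and replicate 2 lowest for UVR8.

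Regulators of the ground tissue were lower in epidermal replicate 3 and often in replicate 2. SCZ, a heat shock-type factor needed for cortex identity and counted here with the endodermis markers, was at 11.57, 10.42 and 7.89 against 12.71, 13.08 and 13.29 (-3.07 ± 1.22). SCR, the GRAS factor of the endodermis and its stem cells, was at 9.00, 8.02 and 7.40 against 9.63, 9.31 and 9.35 (-1.29 ± 0.80). For both genes the groups were apart (2 of 13 endodermis markers, or 15.4%, against 4.99% of all models). MGP, a zinc finger partner of SCR, was at 10.39, 7.89 and 6.19 against 10.05, 11.03 and 10.99 (-2.53 ± 1.23), and its relative JKD differed by -1.60 ± 1.55. In both cases replicate 1 was among the cortical levels. Of 9 ground tissue patterning genes 2 were positive and 7 negative, with a median of -1.07 that was -1.72 without epidermal replicate 1.

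The genes of the Casparian strip ran in another order. MYB36, the regulator that switches on the strip's genes, was at 12.28, 8.63 and 6.68 in the epidermal arrays against 7.05, 6.28 and 6.61 in the cortical arrays (2.55 ± 1.57). CASP1, a scaffold protein of the strip, was at 13.38, 11.89 and 7.71 against 8.62, 8.41 and 8.07 (2.62 ± 1.34). ESB1, a dirigent protein of the strip, was at 13.01, 10.88 and 8.11 against 8.60, 7.99 and 8.34 (2.36 ± 1.25). In epidermal replicate 3 all 3 were at or below cortical levels. Of 13 endodermis markers 11 had a positive difference (median 1.42), and the negative ones were SCR and SCZ. However, without epidermal replicates 1 and 2 together 12 were negative, and CASP1 and ESB1 then differed by -0.66 and -0.20.

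Stele markers were positive for 13 of 16, with a median of 0.96 that was 0.12 without epidermal replicate 2, the array in which most of them were highest. SUC2, the phloem sucrose transporter, was at 8.46, 8.21 and 5.85 against 6.11, 5.87 and 5.85 (1.56 ± 0.56). PXY, a receptor of the vascular cambium, was at 7.07, 9.73 and 7.84 against 6.79, 6.63 and 6.31 (1.64 ± 0.65). It was the member whose epidermal arrays all lay above (6.25% of the list, against 2.84% of all models). LHW, a bHLH factor of vascular patterning, was the member whose epidermal arrays all lay below (6.25%, against 4.99% of all models). Its difference was -0.68 ± 0.61. All 5 root cap markers were positive (median 0.54), and none was apart. SCL26, the gene for which the mutant is named, was at 8.40, 11.26 and 7.55 against 8.13, 7.53 and 7.72, a difference of 1.28 ± 0.83 that was 0.18 without epidermal replicate 2.

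The other lists held few genes whose groups were apart. Auxin transport had 5 positive and 8 negative members. Only ABCB19, an auxin exporter, was below in every epidermal array (7.69% of the list, against 4.99% of all models). It was at 12.12, 10.23 and 10.86 against 12.70, 12.40 and 12.60, a difference of -1.50 ± 0.50. Triterpene synthesis had 2 positive and 9 negative members (median -0.64) and suberin synthesis 9 and 4 (median 0.34), and no member of either was apart. For the cell cycle 3 of 12 were positive (median -0.35), and the mean level of the list was 8.18, 8.38 and 10.13 in the epidermis against 9.13, 8.37 and 10.33 in the cortex, so it varied as much within as between the groups. For wound, heat and protoplasting stress genes 5 of 16 were positive (median -0.25, and 0.23 without epidermal replicate 2), and none was apart.

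Outside the lists, the most positive difference of a model with a symbol among those apart belonged to WNK3, a kinase of the WNK family, at 10.86, 11.78 and 13.14 against 7.20, 7.12 and 7.22 (4.75 ± 1.59). WRKY35, a WRKY transcription factor, was at 9.27, 10.64 and 11.19 against 6.63, 6.44 and 6.31 (3.91 ± 1.22). BCA3, a beta carbonic anhydrase, was at 8.68, 9.42 and 11.95 against 6.58, 7.04 and 6.70 (3.25 ± 0.78). In all 3 genes the epidermal arrays were at least 1 log2 unit above the cortex, and the highest was replicate 3.

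On the negative side, ZIF1, a vacuolar transporter of zinc tolerance, was at 12.47, 7.82 and 5.95 against 13.29, 13.25 and 13.07 (-4.46 ± 1.71). ABCC10, an ABC transporter, was at 11.86, 8.21 and 6.28 against 13.22, 12.76 and 13.49 (-4.37 ± 1.25). HHP3, a heptahelical protein, was at 12.50, 7.64 and 7.03 against 13.36, 13.22 and 13.35 (-4.25 ± 1.61). These had the same order of epidermal arrays as TT4, with replicate 1 nearest to the cortex. FK, a sterol reductase, was at 13.21, 12.25 and 12.59 against 13.93, 13.68 and 14.02, a smaller and tighter difference of -1.19 ± 0.33.

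The authors' averages, in which an array labelled atscl26 epidermis KNO3 takes the place of epidermal replicate 2, turned the sign of 96 of 297 list entries and of 0 of the 51 whose groups were apart. The 51 had been picked by arrays that the averages mostly share, so a count near 0 was likely in advance. Among the genes given above with a positive difference, IRT1 (-0.15), FRO2 (-0.43), DFR (-0.91), LDOX (-0.32), CRY1 (-0.43) and PHOT2 (-0.07) were negative in the authors' deposited table. Of the 12 light-signalling genes, 0 were positive and 12 negative in the authors' deposited table. In the authors' deposited table the difference was 4.47 for MYC1, 3.64 for RHD6, 2.11 for GL2, 3.82 for WER, 4.29 for KCS1 and 2.14 for KT1, and 1.48 for PAL4 against 2.58 here. In the authors' deposited table it was -4.35 for TT4, -4.82 for FLS1, -5.05 for NPH3 and -3.90 for SCZ, while PHYA and UVR8 came to -0.84 and -0.71. The table shares 5 of the 6 arrays with the comparison, so these values are not independent of it.

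The same difference between cell types was taken in the other 3 combinations of genotype and treatment, which by their labels share no array with the 6 described. In the authors' deposited table the average for Col0 cortex KNO3 holds, beside its 2 labelled arrays, the array labelled atscl26 cortex KCl replicate 1. Of the 2 labelled arrays, replicate 1 stood apart, with a median correlation of 0.681 with the other arrays and a compressed range (7.30 and 11.45 for the dimmest and brightest bins, against 6.30 and 12.34 in replicate 2). Values without it are therefore given too, a choice made after seeing the data. No model passed the limma test in any of them. At an unadjusted p under 0.05, 4.48% of models were higher and 3.37% lower in the epidermis in Col0 KNO3 (2475 in all), 1.86% and 1.55% in atscl26 KCl (1074), and 2.11% and 1.59% in atscl26 KNO3 (1165). Every epidermal array lay above every cortical array for 7.28%, 9.64% and 6.23% of models in these 3 combinations in the same order, and below for 8.58%, 11.4% and 10.6%. In the first 2 of these combinations a group holds only 2 arrays. Of the 895 models with every epidermal array above in Col0 KCl, 60.9% had a positive difference in Col0 KNO3 and 62.3% in atscl26 KCl, where 40.9% and 42.6% of all models did. In atscl26 KNO3 the share was 35.8%, against 41.4% of all models. Of the 1572 with every epidermal array below, 57.1%, 62.2% and 37.3% were negative in Col0 KNO3, atscl26 KCl and atscl26 KNO3, against 59.1%, 57.4% and 58.6% of all models. Over all models the difference in Col0 KCl correlated with these 3 at 0.01, 0.19 and -0.37, where genes are not independent. Without Col0 cortex KNO3 replicate 1, the correlation with Col0 KNO3 was 0.39. The shares there were then 74.2% positive against 58.5% of all models, and 70.4% negative against 41.5%.

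Several named genes had the same sign in Col0 KCl, Col0 KNO3 and atscl26 KCl. In atscl26 KCl, however, 1 array labelled cortex, replicate 3, had marker means unlike those of cortical replicates 1 and 2. Its epidermal patterning mean was 10 against 8.12 and 8.63, and 10.14 and 9.79 in the epidermal arrays. Its cortex marker mean was 7.87 against 10.08 and 9.70. The part of this array in the atscl26 KCl values was not tested. RHD6 differed by 3.02 ± 1.31 in Col0 KNO3 and 1.77 ± 1.31 in atscl26 KCl, and GL2 by 1.19 ± 0.88 and 2.11 ± 0.88. WER differed by 4.12 ± 1.62 and 3.58 ± 1.62. FRU (2.32 ± 0.92 and 1.51 ± 0.92), NIP1;1 (2.52 ± 1.35 and 2.92 ± 1.35) and CER3 (3.45 ± 1.45 and 2.63 ± 1.45) did likewise. The surface lipid list as a whole had a median of 0.15 in Col0 KNO3 and 1.11 in atscl26 KCl against 1.99 in Col0 KCl, and in Col0 KNO3 LTP5 differed by 0.20 ± 1.55 and LTP3 by -0.96 ± 1.39. On the negative side TT4 differed by -6.62 ± 1.73 and -3.70 ± 1.73, CHIL by -6.25 ± 1.54 and -4.23 ± 1.54, and PKS1 by -4.69 ± 1.50 and -3.28 ± 1.50. Without Col0 cortex KNO3 replicate 1 the Col0 KNO3 differences were 4.86 for RHD6, 2.44 for GL2, 5.02 for WER, 3.23 for FRU, 3.84 for NIP1;1, 3.87 for CER3, -7.38 for TT4, -6.53 for CHIL and -4.58 for PKS1, and the surface lipid median was 0.75. LTP5 and LTP3 still did not follow Col0 KCl, with differences of 0.11 and -1.38.

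In atscl26 KNO3 many of these signs were opposite. RHD6 differed by -2.21 ± 1.17, NIP1;1 by -2.12 ± 1.21 and WER by -2.23 ± 1.45, and TT4 differed by 2.61 ± 1.55, PHOT1 by 2.95 ± 1.31 and PKS1 by 2.53 ± 1.34. The marker means moved in the same way there. In the atscl26 KNO3 arrays the epidermal patterning mean was 9.93, 8.71 and 8.02 in the arrays labelled epidermis against 9.44, 10.10 and 10.18 in those labelled cortex, and the cortex marker mean was 8.02, 9.82 and 10.85 against 9.97, 9.36 and 8.19. The part of these markers in the signs was not tested.

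PAL4 and NCED3, which had the smallest p among the genes with a symbol, had differences closer to 0 in the other 3 combinations. Because both were picked for a small p in Col0 KCl, smaller differences elsewhere do not show a trait particular to that group. The changes given below use the same Col0 KCl arrays. PAL4 differed by -0.45 ± 0.48, 0.08 ± 0.48 and -0.43 ± 0.43 in Col0 KNO3, atscl26 KCl and atscl26 KNO3, and NCED3 by -0.76 ± 0.63, -0.32 ± 0.63 and 0.41 ± 0.57. Without Col0 cortex KNO3 replicate 1 the Col0 KNO3 differences were 0.36 for PAL4 and -0.56 for NCED3. PAL4 was at 8.08 in that array, which also enters the change given next, and at 6.46 in Col0 cortex KNO3 replicate 2. The change of the cell type difference from KCl to KNO3 in Col0 was -3.03 ± 0.64 for PAL4 and -3.37 ± 0.85 for NCED3, each with a limma adjusted p of 0.761. Neither passed. No model passed the limma test of that interaction, where 4.16% of models had a more positive and 2.35% a more negative difference at an unadjusted p under 0.05 (2051 in all). None passed the limma test of atscl26 against Col0 under KCl either, where these shares were 1.37% and 1.14% (790 in all) and the smallest adjusted p was 0.983.

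**Figure D5:**
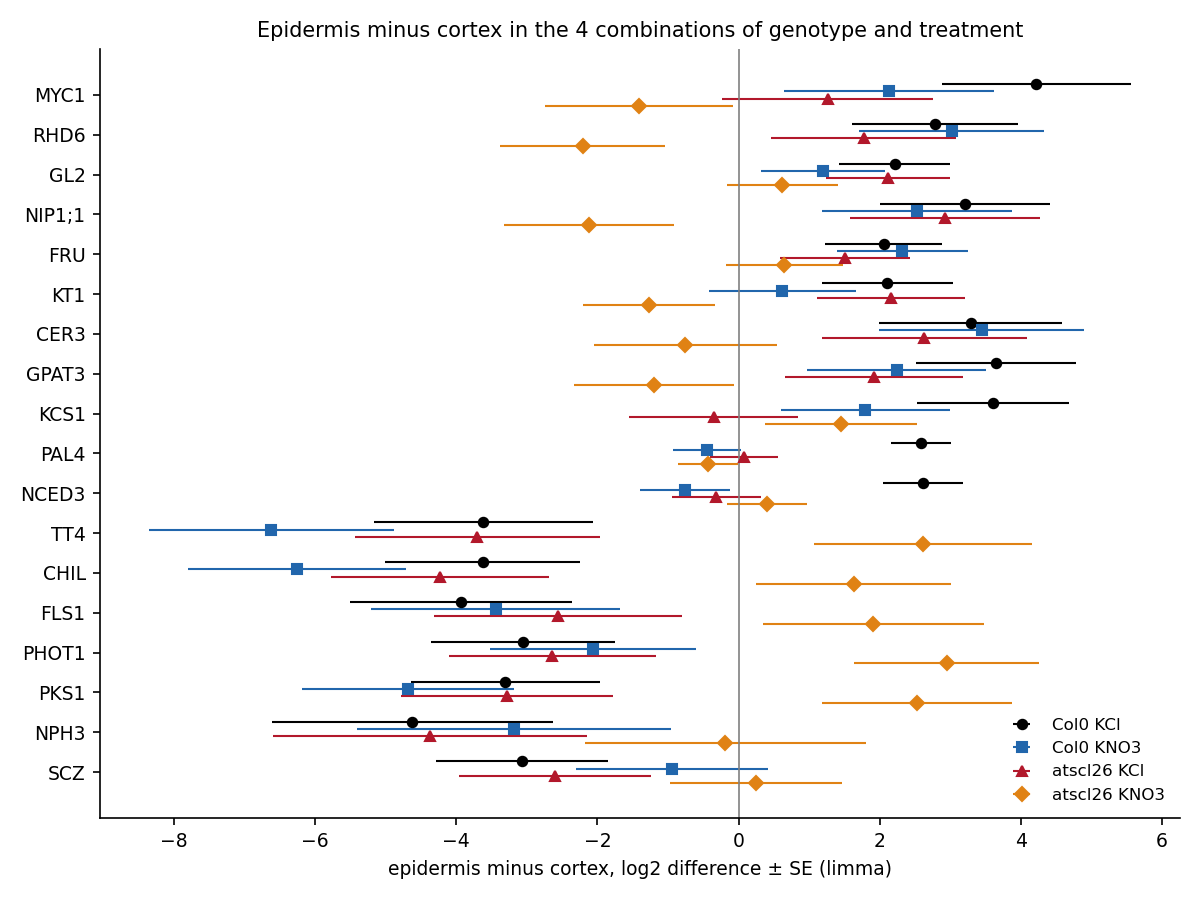
Epidermis minus cortex (horizontal axis, log2 difference with bars of 1 standard error from limma) for 18 genes in Col0 KCl (black), Col0 KNO3 (blue), atscl26 KCl (red) and atscl26 KNO3 (orange). Most genes lay on the same side of 0 in the first 3, TT4 and PKS1 lay on the other side in atscl26 KNO3, and PAL4 and NCED3 lay at 2.58 and 2.61 in Col0 KCl and within 1 unit of 0 in the others.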

How the data were processed

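Expression was measured on 22 one-colour NimbleGen arrays. The deposited values are log2 expression levels made by RMA with 1 value per transcript model, per the submitters' processing notes, and the authors also deposited log2 averages of each group. No source used here gives the RMA settings. The series text says that 24 arrays were made and 2 removed. No depth applies to arrays, and their number limits the precision.

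Levels entered the tests unchanged. With limma 3.58.1 in R 4.3.3, the means of 8 groups were estimated from the 22 arrays together (14 residual degrees of freedom), which gives groups of 2 or 3 arrays 1 shared estimate of the spread. Contrasts were tested with eBayes and adjusted by Benjamini-Hochberg over 31524 models, with a threshold of 0.05. The fit was checked on simulated data, in which 24% of changes of 2 log2 units and 80% of changes of 4 were called, with 11 false calls. The simulation gave all groups the same spread for a model, whereas the epidermal arrays here were less alike than the cortical arrays. No model was filtered out.

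Gene lists (18, with 243 members) and 4 added lists (54 members) are described by counts and medians, without tests. The members and lists were chosen with earlier results of these data known. Named genes are SCL26, the 12 higher and 12 lower models of smallest p, the 10 highest and 10 lowest differences among models whose groups do not overlap, and list members. For each interaction the 4 models of smallest p in each direction could also be named. A list member is the lowest-numbered model of its locus. Names come from a TAIR10.1 gene table (30935 models matched), whose symbols are used, and 1 member was left out because the table gives its symbol to other loci. The values of 1 other member are not reported here. Alternatives covered normalization, filters, array weights, left-out arrays and the replicate number as a block.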

Additional observations from a re-analysis of the deposited data

Results flagged for a closer look

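The cell type difference of 4 named genes ran in opposite directions in 2 combinations of genotype and treatment, with the epidermal and cortical arrays fully apart each time. GL3 was higher in every epidermal array in Col0 KCl (1.66) and lower in every one in atscl26 KNO3 (-1.94). HA7 did the same (2.02 and -3.16), as did CER5 (1.99 and -1.03). These 3 differences between combinations were not tested. LTP3 was higher in every epidermal array in Col0 KCl (3.34) and lower in every one in Col0 KNO3 (-0.96), and the interaction was -4.30 ± 1.86 with a limma adjusted p of 0.761. Over all models every epidermal array lay below every cortical array for 10.6% in atscl26 KNO3 and 8.58% in Col0 KNO3. Of the 895 models above in Col0 KCl only 35.8% were positive in atscl26 KNO3, where marker means ran partly against the cell type labels.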

How the results depend on the processing

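The count of models called in Col0 KCl was 0 in the main analysis. It was 2 after quantile normalization, 1 without the 4 arrays of lowest correlation, and between 0 and 30 when any 1 array was left out, with 30 without epidermal replicate 1 and 1 without cortical replicate 3. Array weights gave 3486 calls, of which 863 had groups apart, and epidermal replicate 3 then held 4.238 of a summed epidermal weight of 4.855. Without epidermal replicates 1 and 2 together, a choice made after seeing the data that leaves replicate 3 alone and assumes it varies like the other groups, the count was 48. The count for the KNO3 interaction was 8 without the 4 low-correlation arrays, 5 without the 2 epidermal replicates, and 0 to 674 with 1 array out (674 without Col0 cortex KNO3 replicate 2, 5 without epidermal replicate 1). The atscl26 interaction had 7 calls with array weights, 3 without the 2 epidermal replicates, and 0 to 1 with 1 array out (1 without atscl26 epidermis KCl replicate 2). The remaining alternatives gave 0 calls in all 3.

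Same-numbered arrays deviated from their group means with correlations of -0.007, -0.001 and 0.245, and differently numbered arrays with -0.172 to 0.12. With 3 arrays a group, these values do not settle whether the numbers pair arrays. The fit with the replicate block called 0 models. Of 79 genes and models followed, the sign of C/VIF2 turned without epidermal replicate 3 (its range with 1 array out was -1.30 to 0.756), and without replicates 1 and 2 together 7 signs turned: AT1G30870 (-0.429), EXPA7 (-0.0329), CASP1 (-0.663), ESB1 (-0.204), SUC2 (-0.0895), IRT2 (-0.0953) and SCL26 (-0.242). With array weights 48 of the 79 passed, beside 3486 of all 31524 models. Of those 3486, 84 had a sign opposite to that of the unweighted fit. Many of the 79 had been picked from the same 6 arrays, so a high share was likely in advance. EMB2756, whose groups overlapped (-2.39), passed without epidermal replicate 1 (-3.53, limma adjusted p 0.00627). PAL4 also passed without the 4 low-correlation arrays (limma adjusted p 0.0173), and its adjusted p rose to 0.979 without cortical replicate 3. The causes were not tested.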
